A study of Mus musculus with 8 samples.

Results

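The 8 genes described here encode enzymes that carry acetyl-CoA through mevalonate to farnesyl and geranylgeranyl diphosphate. They are Acat2, Hmgcs1, Mvk, Pmvk, Mvd, Idi1, Fdps and Ggps1, chosen by name among the 25766 entries of the deposited count table. RNA-seq was done on 8 subcutaneous tumors grown from MC38-OVA cells, which derive from a mouse colon adenocarcinoma and express ovalbumin as a model antigen. In 4 tumors the injected cells had the genotype shXBP1, a short hairpin RNA against Xbp1, and in the other 4 they had the genotype labelled shNT, which served as the control. All of the cells were injected under the skin of female mice, given as C57BL/6J in the treatment label. The sources used here do not give the age of the mice, the time in the mouse, or whether a hairpin line was 1 clone or a pool. According to the labels only the injected cells carried a hairpin, and not the host cells among them. Total RNA of whole tumors was used, and the labels do not say whether each tumor came from its own mouse, so a p-value reflects no more than the spread among these 8 samples.

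In shXBP1 tumors 7 of the 8 enzymes fell, by 2.32-fold to 3.73-fold, where 13.1% of all genes tested were called lower. Every shXBP1 tumor lay below every shNT tumor for each of the 7, as was so for 13.6% of all genes. Ggps1, which makes geranylgeranyl diphosphate, did not pass the test. The 8 transcripts together made up 408 ± 77.6 CPM (counts relative to library size) in shXBP1 tumors and 1322 ± 90.6 CPM in shNT tumors (SD, n = 4 each). In whole tumors, fewer cells of a type and less RNA per cell cannot be told apart.

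The mevalonate pathway builds isoprenoid units from acetyl-CoA in the cytosol, the endoplasmic reticulum and peroxisomes. Farnesyl diphosphate is its branch point. Squalene and then cholesterol are made from it, as are the prenyl groups on small GTPases and lamins, the side chain of ubiquinone, dolichol for protein glycosylation, and geranylgeranyl diphosphate. Genes of the pathway are known as targets of the transcription factor SREBP-2, which is released from the endoplasmic reticulum when membrane sterols are low. XBP1 is a transcription factor that the unfolded protein response activates through splicing of its mRNA. The series sets tumors with and without the hairpin against it side by side.

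Promoters are shown to set the enzymes that fell beside the enzyme that did not. RefSeq promoters of GRCm38.p6, from 250 bases before to 50 bases after each annotated start, were found for 7 of the 8 genes, and Fdps had none in the table. Pmvk has 2 starts there, so these are 8 promoters. They were searched on both strands for TCACNCCAC (a sterol regulatory element), CCAAT (the box bound by NF-Y), CACGTG (an E-box) and TGACGTG (the core of the unfolded protein response element). Capitals mark matches, and ATTGG is CCAAT read from the other strand. Hmgcs1, at chr13:119690101-119690400 on the plus strand, is shown as the one with a match to TCACNCCAC. Mvk, at chr5:114444019-114444318 on the plus strand, is shown for the most CCAAT boxes, and Idi1, at chr13:8885356-8885655 on the plus strand, as the gene with the most negative log2 fold change. Ggps1, at chr13:14063439-14063738 on the minus strand, is shown as the enzyme that did not fall.
Hmgcs1: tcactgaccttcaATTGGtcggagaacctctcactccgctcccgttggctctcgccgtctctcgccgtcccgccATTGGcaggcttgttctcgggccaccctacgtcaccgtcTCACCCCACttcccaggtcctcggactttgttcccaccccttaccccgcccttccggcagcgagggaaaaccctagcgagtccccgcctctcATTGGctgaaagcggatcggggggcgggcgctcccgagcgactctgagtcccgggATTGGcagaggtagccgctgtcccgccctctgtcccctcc
Mvk: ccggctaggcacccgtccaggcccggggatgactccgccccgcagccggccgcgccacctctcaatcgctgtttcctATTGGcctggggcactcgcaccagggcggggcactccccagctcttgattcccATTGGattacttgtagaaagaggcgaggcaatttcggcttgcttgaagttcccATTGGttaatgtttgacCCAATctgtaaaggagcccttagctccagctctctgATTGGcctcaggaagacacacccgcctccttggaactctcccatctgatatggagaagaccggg
Idi1: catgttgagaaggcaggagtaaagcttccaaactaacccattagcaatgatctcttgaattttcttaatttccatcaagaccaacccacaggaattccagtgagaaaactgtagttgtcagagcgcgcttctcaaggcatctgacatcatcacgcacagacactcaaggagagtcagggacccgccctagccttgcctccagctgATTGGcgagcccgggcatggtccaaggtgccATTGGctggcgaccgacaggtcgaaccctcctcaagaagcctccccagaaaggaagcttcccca
Ggps1: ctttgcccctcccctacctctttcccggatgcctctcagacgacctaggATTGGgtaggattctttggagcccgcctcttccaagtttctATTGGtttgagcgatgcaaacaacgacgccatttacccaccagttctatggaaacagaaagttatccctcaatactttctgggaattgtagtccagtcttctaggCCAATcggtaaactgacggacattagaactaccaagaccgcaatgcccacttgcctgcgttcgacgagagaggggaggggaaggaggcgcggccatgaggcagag

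TCACNCCAC, the 1 form of the sterol regulatory element searched, stood in 1 of the 8 promoters, that of Hmgcs1. Its first base lay 137 bases before the start, and 1.24% of the 32851 promoters in the table held it. It stood in 3 of 113 promoters of genes called lower by at least 2-fold, which include those here other than Ggps1. Other forms of the element were not searched. CCAAT stood in 6 of the 8, against 37.4% of all promoters and 46.0% of those 113. Mvk had 5 matches, Hmgcs1 4, Ggps1 3, Mvd 2, Idi1 2 and Pmvk 1 at its first start, and neither the second start of Pmvk nor Acat2 had one in this window. The Ggps1 promoter thus held more CCAAT matches than those of Idi1, Mvd and Pmvk. Neither the E-box nor the unfolded protein response core stood in any of the 8, against 7.15% and 2.01% of all promoters. Among those 113 the shares were 7.08% and 0%. These matches are descriptions of letters in a window and say nothing of binding.

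The libraries were of like depth, with total counts of 29070605 to 36012997. A single enzyme had between 431 counts in a tumor (Pmvk) and 14094 (Hmgcs1). Of 14907 genes tested, 1958 were lower in shXBP1 tumors, 13.1%, and 2517 were higher, 16.9%, which makes 30.0% in either direction (edgeR quasi-likelihood test, Benjamini-Hochberg adjusted p below 0.05). The median log2 fold change of all genes was -0.01, with quartiles of -0.22 and 0.30. Xbp1 itself, the gene the hairpin targets, had 77.2, 76.0, 73.7 and 56.6 CPM in shXBP1 tumors 1 to 4, against 97.3, 96.0, 102.5 and 109.2 CPM in shNT tumors 1 to 4. Its groups did not overlap, and it was 1.43-fold lower (log2 fold change -0.51, SE 0.10, adjusted p = 0.00255). Krt8, Krt18, Krt7, Epcam and Cldn7, listed as markers of epithelial tumor cells, were under 1 CPM in every tumor. The labelled colon adenocarcinoma cells could therefore not be recognised by them. The 7 epithelial markers listed summed to 7.52 to 10.8 CPM in shXBP1 and 5.77 to 7.88 CPM in shNT tumors, most of it Cdh1. Of the 3 tested edgeR called 0, with 1 lower and 1 higher at an unadjusted p below 0.05, while DESeq2 called 1 higher and limma voom 1 lower.

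The pathway opens with the enzymes that condense acetyl-CoA. Acat2, the cytosolic thiolase that joins acetyl-CoA units to acetoacetyl-CoA, lies at chr17:12942890-12960747 on the minus strand (GRCm38). It had 43.2, 29.8, 44.3 and 55.6 CPM in shXBP1 tumors 1 to 4, against 163, 170, 146 and 134 CPM in shNT tumors 1 to 4. The highest shXBP1 tumor, tumor 4, was still far under the lowest shNT tumor. The mean was 43.3 ± 10.6 CPM in shXBP1 and 153 ± 16.1 CPM in shNT tumors (SD, n = 4 each), 3.55-fold lower (log2 fold change -1.83, SE 0.16, adjusted p = 3.61e-05). Hmgcs1, the cytosolic synthase that adds a further acetyl-CoA to form HMG-CoA, lies at chr13:119690379-119708260 on the plus strand. Its level was 102, 80.8, 125 and 147 CPM in shXBP1 tumors 1 to 4, against 403, 445, 394 and 412 CPM in shNT tumors 1 to 4. The 4 shNT tumors were close together, while the shXBP1 tumors were more spread, with tumor 2 lowest and tumor 4 highest. Hmgcs1 averaged 114 ± 28.7 CPM in shXBP1 and 413 ± 22.2 CPM in shNT tumors, 3.64-fold lower (log2 fold change -1.86, SE 0.16, adjusted p = 2.12e-05).

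Mevalonate is then activated by phosphorylation. Mvk, mevalonate kinase, at chr5:114444269-114460591 on the plus strand, had 22.0, 18.2, 21.4 and 25.7 CPM in shXBP1 tumors 1 to 4, against 48.3, 60.3, 47.7 and 49.2 CPM in shNT tumors 1 to 4. Tumor 2 was the lowest of the shXBP1 tumors and tumor 2 the highest of the shNT tumors, and the groups did not overlap. The mean was 21.8 ± 3.05 CPM in shXBP1 and 51.4 ± 5.99 CPM in shNT tumors, 2.35-fold lower (log2 fold change -1.24, SE 0.12, adjusted p = 2.35e-05). Pmvk, phosphomevalonate kinase, at chr3:89454541-89469013 on the plus strand, had 15.5, 13.9, 14.1 and 13.3 CPM in shXBP1 tumors 1 to 4, against 35.8, 30.7, 32.0 and 33.0 CPM in shNT tumors 1 to 4. It was the least variable of the 8 enzymes among shXBP1 tumors, with a coefficient of variation of 6.59%, and the only one that fell and had its highest shXBP1 value in tumor 1. Pmvk averaged 14.2 ± 0.935 CPM in shXBP1 and 32.9 ± 2.16 CPM in shNT tumors, 2.32-fold lower (log2 fold change -1.21, SE 0.09, adjusted p = 8.03e-06).

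Mvd, the decarboxylase that makes isopentenyl diphosphate, at chr8:122433601-122443422 on the minus strand, had 23.3, 17.9, 23.9 and 35.5 CPM in shXBP1 tumors 1 to 4, against 85.9, 85.3, 88.7 and 77.9 CPM in shNT tumors 1 to 4. With a coefficient of variation of 29.5% it was the most variable of the 8 among shXBP1 tumors. Its mean was 25.1 ± 7.41 CPM in shXBP1 and 84.4 ± 4.63 CPM in shNT tumors, 3.35-fold lower (log2 fold change -1.75, SE 0.17, adjusted p = 6.40e-05). Idi1, the isomerase that turns isopentenyl into dimethylallyl diphosphate, at chr13:8885501-8892451 on the plus strand, had 69.1, 49.9, 75.6 and 80.9 CPM in shXBP1 tumors 1 to 4, against 296, 290, 221 and 221 CPM in shNT tumors 1 to 4. Here the shNT tumors split, with tumors 1 and 2 above tumors 3 and 4, yet each was over 2 times the highest shXBP1 tumor. Idi1 averaged 68.9 ± 13.6 CPM in shXBP1 and 257 ± 41.7 CPM in shNT tumors, 3.73-fold lower (log2 fold change -1.90, SE 0.16, adjusted p = 2.19e-05).

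Fdps and Ggps1, the prenyl diphosphate synthases at the end of the pathway, parted. Fdps, which makes farnesyl diphosphate, at chr3:89093588-89101959 on the minus strand, had 71.0, 52.5, 76.5 and 104.5 CPM in shXBP1 tumors 1 to 4, against 292, 295, 292 and 256 CPM in shNT tumors 1 to 4. The groups were far apart, and shXBP1 tumor 4 was again the highest of its group. The mean was 76.1 ± 21.5 CPM in shXBP1 and 284 ± 18.6 CPM in shNT tumors, 3.73-fold lower (log2 fold change -1.90, SE 0.17, adjusted p = 5.09e-05). Ggps1, which adds a further unit to farnesyl diphosphate, at chr13:14050659-14063488 on the minus strand, had 44.8, 51.1, 44.8 and 38.2 CPM in shXBP1 tumors 1 to 4, against 52.3, 43.2, 44.3 and 42.9 CPM in shNT tumors 1 to 4. Its groups overlapped throughout, and shXBP1 tumor 2, where 6 of the other 7 enzymes were lowest, had the highest Ggps1 of its group. The mean was 44.7 ± 5.26 CPM in shXBP1 and 45.7 ± 4.48 CPM in shNT tumors (log2 fold change -0.03, SE 0.10, adjusted p = 0.850). The 95% interval of the Ggps1 log2 fold change ran from -0.25 to 0.19, which does not reach the fall of any of the other enzymes.

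**Figure D1:**
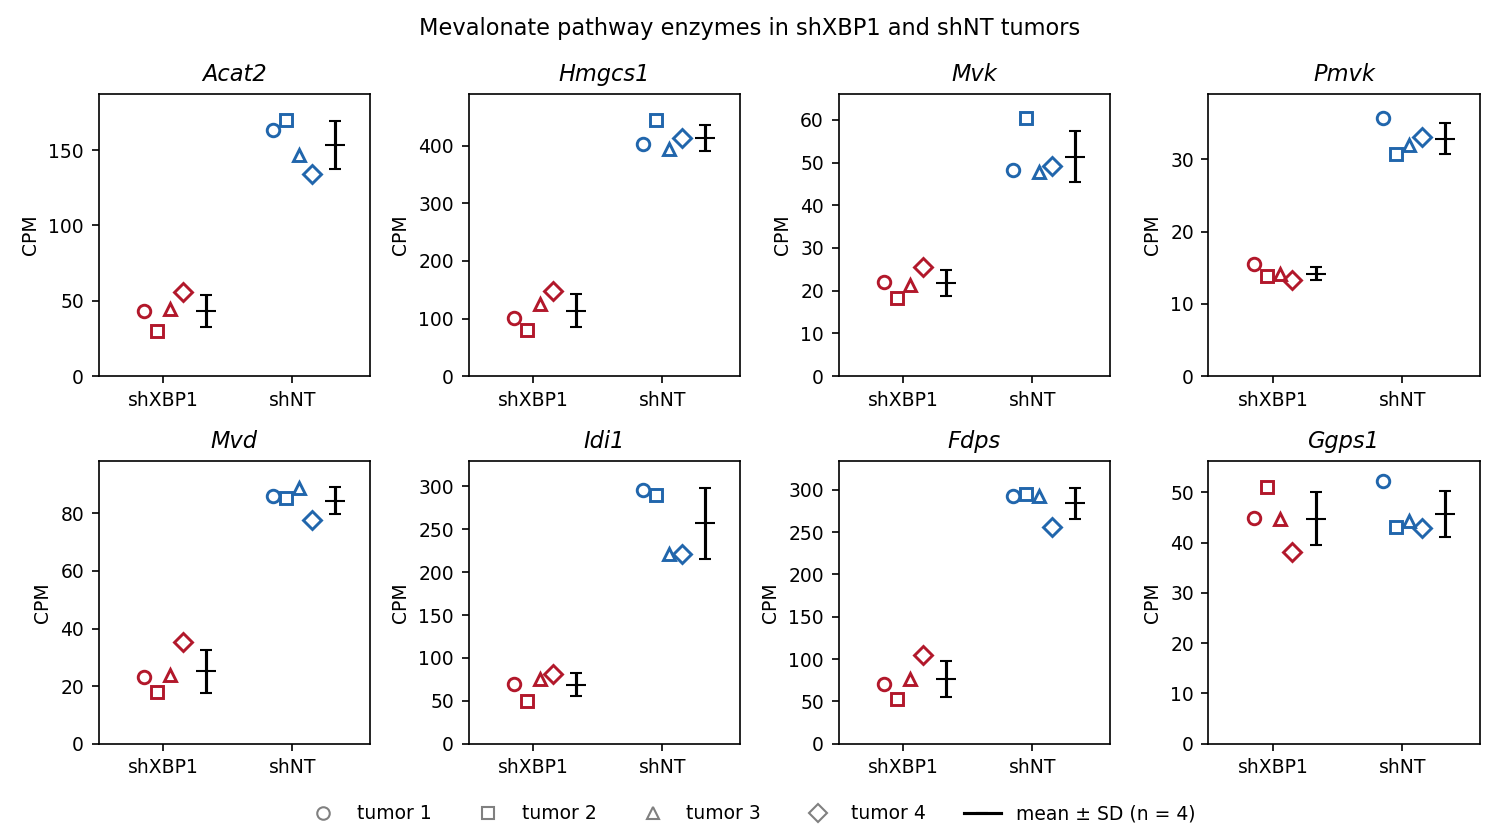
Level of each enzyme in CPM (vertical axes, from 0, each with its own scale) in every shXBP1 tumor (red) and shNT tumor (blue), with marker shapes for the tumor number and bars for mean ± SD (n = 4). For 7 enzymes all red points lie below all blue ones, as for Hmgcs1 with 114 ± 28.7 CPM in shXBP1 and 413 ± 22.2 CPM in shNT tumors, while Ggps1 overlaps at 44.7 ± 5.26 CPM in shXBP1 and 45.7 ± 4.48 CPM in shNT tumors.

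Thus 7 of 8 enzymes passed the test as lower, beside 13.1% of all genes, and the median log2 fold change of the 8 was -1.79, beside -0.01 for all genes. The 7 held places between 33 (Idi1) and 152 (Pmvk) when the 14907 genes were ranked from the most negative log2 fold change, and Ggps1 held place 7008. Only 166 genes were called lower by at least 2-fold in the whole table. In the authors' deposited table, made with DESeq2 per its headers, the same 7 genes are called down with log2 fold changes of -1.19 (Pmvk) to -1.82 (Idi1), and Ggps1 stands at -0.02. Per its headers, a call there needs an adjusted p of 0.01 and a fold change of 2, a stricter rule than the one used here. Under that rule it calls 95 of 13307 genes lower and 834 higher, and Xbp1, at -0.50, is called neither. These counts are therefore not like for like with those of edgeR above.

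The 7 falls were not all of one size. Acat2, Hmgcs1, Mvd, Idi1 and Fdps fell by 3.35-fold to 3.73-fold, whereas the kinases Mvk and Pmvk fell by 2.35-fold and 2.32-fold. The 95% interval of Idi1, from -2.25 to -1.55 on the log2 scale, did not overlap that of Pmvk, from -1.42 to -1.01. The difference between the genes was not tested, and the split was seen only after the values were known. It did not hold when Ptprc, a leukocyte gene, entered the edgeR fit as a covariate, as described below. Pmvk then had the most negative log2 fold change of the 7, -1.38, and Mvk the least negative, -0.59, with Idi1 at -1.24.

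Levels can be compared between genes only per length, so the deposited FPKM values (counts scaled to gene length and library size) were used for the order of the enzymes. In shXBP1 tumors the order was Fdps (56.0 ± 20.3 FPKM), Hmgcs1 (30.6 ± 8.76), Idi1 (20.3 ± 4.69), Acat2 (17.3 ± 5.05), Mvd (12.8 ± 4.43), Mvk (12.2 ± 2.36), Ggps1 (10.8 ± 0.995) and Pmvk (10.5 ± 0.559). In shNT tumors it was Fdps (204 ± 20.03 FPKM), Hmgcs1 (113 ± 9.80), Idi1 (76.0 ± 14.0), Acat2 (62.0 ± 8.76), Mvd (42.1 ± 2.75), Mvk (28.6 ± 4.32), Pmvk (24.3 ± 1.20) and Ggps1 (10.9 ± 0.792; SD, n = 4 each). Fdps and Hmgcs1 stood at the top in each group. The order from Fdps to Mvd held within each of the 4 shXBP1 tumors, although mean ± SD overlapped for each adjacent pair. Among the lower ones Mvd was above Mvk in 2 of 4 shXBP1 tumors, Mvk above Ggps1 in 3 of 4 and Ggps1 above Pmvk in 2 of 4. Within each of the 4 shNT tumors the whole order held, although mean ± SD overlapped for Idi1 and Acat2 and for Mvk and Pmvk. Ggps1 made up 6.33% of the summed FPKM of the 8 enzymes in shXBP1 tumors and 1.95% in shNT tumors.

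Ratios within a tumor were used to set Fdps and Acat2 each against a related enzyme. The log2 ratio of Fdps to Ggps1, the farnesyl against the geranylgeranyl synthase, was 0.66, 0.04, 0.77 and 1.45 in shXBP1 tumors 1 to 4, against 2.48, 2.77, 2.72 and 2.58 in shNT tumors 1 to 4. The ratio was lowest in shXBP1 tumor 2, and the groups did not overlap. The difference was -1.91 (0.73 ± 0.58 in shXBP1 and 2.64 ± 0.13 in shNT tumors, SD, n = 4 each, two-sided exact permutation test, p = 0.0286, adjusted over 3 ratios p = 0.0429). The smallest p that 4 against 4 tumors can give is 0.0286. Acat1, the mitochondrial thiolase that runs the same reaction as Acat2 and serves ketone bodies, was at 91.7 ± 6.84 CPM in shXBP1 and 98.6 ± 7.86 CPM in shNT tumors (log2 fold change -0.11, adjusted p = 0.379). The log2 ratio of Acat2 to Acat1 was -0.92, -1.70, -1.08 and -0.76 in shXBP1 tumors 1 to 4, against 0.58, 0.78, 0.61 and 0.57 in shNT tumors 1 to 4, again with shXBP1 tumor 2 lowest and no overlap. These ratios are of CPM, without gene length, so they compare tumors and not the levels of the genes. The difference was -1.75 (exact permutation p = 0.0286, adjusted p = 0.0429). Fdps and Acat2 were already seen to fall while Ggps1 and Acat1 did not pass, so these tests restate those falls.

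**Figure D2:**
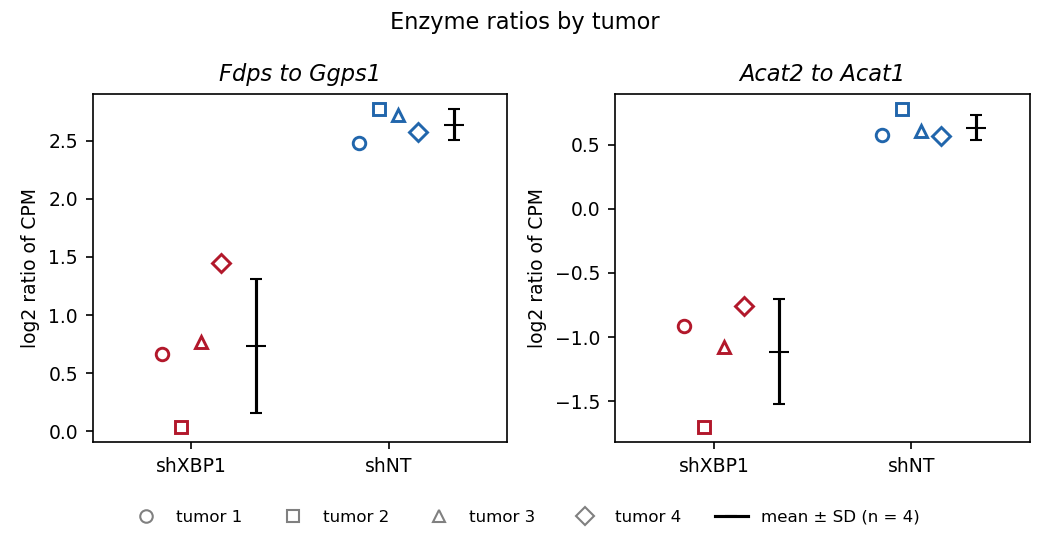
Log2 ratio of CPM (vertical axes, not starting at 0) between an enzyme and its partner in each shXBP1 tumor (red) and shNT tumor (blue), with mean ± SD (n = 4). Fdps to Ggps1 averages 0.73 in shXBP1 and 2.64 in shNT tumors, and Acat2 to Acat1 averages -1.11 in shXBP1 and 0.63 in shNT tumors, with no overlap in either.

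The 7 enzymes that fell also differed among the shXBP1 tumors, most of them in a shared order. There, tumor 2 had the lowest value of 6 of the 7 and tumor 4 the highest of 6 of the 7, with Pmvk the exception in each case. Among shNT tumors no 1 tumor stood out in this way, with the lowest values spread as 0, 1, 3 and 3 and the highest as 2, 4, 1 and 0 over tumors 1 to 4. The mean log2 CPM of the 8 enzymes, centred on each gene's mean over the 8 tumors, was -0.74, -1.04, -0.69 and -0.49 in shXBP1 tumors 1 to 4, against 0.82, 0.82, 0.69 and 0.64 in shNT tumors 1 to 4. Ptprc, the pan-leukocyte antigen CD45, moved the other way between the groups. It had 156, 193, 171 and 94.8 CPM in shXBP1 tumors 1 to 4, against 59.4, 42.6, 66.5 and 56.4 CPM in shNT tumors 1 to 4. It was highest in shXBP1 tumor 2, where the enzymes were lowest, and lowest of its group in shXBP1 tumor 4, where they were highest. The order was not inverse throughout. Both Ptprc and the enzyme mean were higher in shXBP1 tumor 3 than in shXBP1 tumor 1, and both were lower in shNT tumor 4 than in shNT tumor 1. Xbp1 was at its lowest, 56.6 CPM, in shXBP1 tumor 4.

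**Figure D3:**
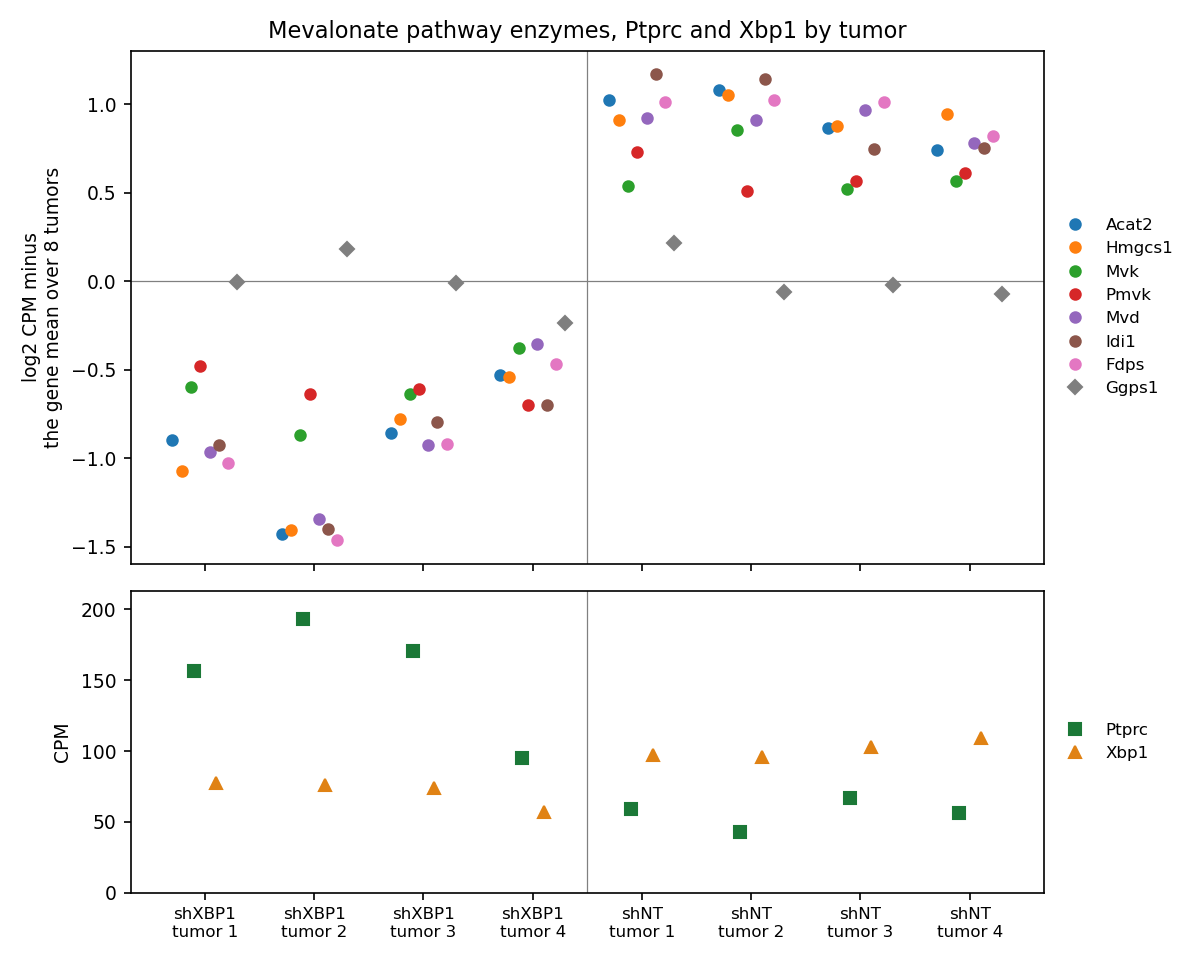
Upper panel, log2 CPM of each enzyme minus its mean over the 8 tumors (vertical axis) in shXBP1 tumors 1 to 4 and shNT tumors 1 to 4 (horizontal axis). Lower panel, CPM of Ptprc and Xbp1 in the same tumors, from 0. The enzymes other than Ggps1 sit below 0 in all shXBP1 tumors and above 0 in all shNT tumors, and Ptprc spans 94.8 to 193 CPM in shXBP1 and 42.6 to 66.5 CPM in shNT tumors.

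Marker genes of other cells differed between the groups too. Of all genes tested, 16.9% were called higher and 13.1% lower. All 6 leukocyte markers rose, with a summed level of 887 to 1485 CPM in shXBP1 tumors and 456 to 593 CPM in shNT tumors. Of 6 fibroblast markers 5 rose, and the sum was 5602 to 7860 CPM in shXBP1 and 1432 to 2567 CPM in shNT tumors. This sum is mostly Col3a1 (5165 ± 704 CPM in shXBP1 and 1580 ± 413 CPM in shNT tumors), and Col1a1 did not pass (log2 fold change 0.05). Of 5 endothelial markers 3 rose, with 84.6 to 96.9 CPM in shXBP1 and 39.7 to 48.7 CPM in shNT tumors. Among 7 proliferation genes Mki67, Top2a and Mcm2 fell and the other 4 did not pass, with 1683 to 2122 CPM in shXBP1 and 2275 to 2500 CPM in shNT tumors. Of the skin epithelium markers Krt14 fell, with a sum of 49.9 to 55.3 CPM in shXBP1 and 148 to 210 CPM in shNT tumors, and Krt1 and Scd3 were under 1 CPM in every tumor. That sum is mostly Krt14, since Krt10 did not pass (log2 fold change 0.09) and Krt5, below the filter, averaged 1.12 CPM in shXBP1 and 0.0234 CPM in shNT tumors. Of the adipocyte markers Fabp4 rose, and the list summed to 22.4 to 28.8 CPM in shXBP1 and 11.2 to 16.3 CPM in shNT tumors. Plin1 was at -1.86 (adjusted p = 0.105 in edgeR, called lower by limma voom), and Adipoq, Plin1, Cidec and Lep were under 1 CPM throughout. None of the 5 skeletal muscle markers was called by edgeR, DESeq2 or limma voom, and none reached an unadjusted p under 0.05 in these fits (14.1 to 55.1 CPM in shXBP1 and 10.1 to 35.4 CPM in shNT tumors). Without shNT tumor 1, edgeR called 2 of the 5 higher, and 3 rose with an unadjusted p under 0.05.

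When Ptprc (log2 CPM) entered the fit as a covariate, 2 of the 8 enzymes were called lower by edgeR, Hmgcs1 (log2 fold change -1.10, adjusted p = 0.0378) and Pmvk (log2 fold change -1.38, adjusted p = 0.0102). Acat2 was then at -1.03 (adjusted p = 0.0597), Fdps at -1.08 (adjusted p = 0.0597), Idi1 at -1.24 (adjusted p = 0.0764), Mvd at -0.93 (adjusted p = 0.0896) and Mvk at -0.59 (adjusted p = 0.146). All 8 had a negative log2 fold change with an unadjusted p under 0.05, Ggps1 among them (log2 fold change -0.48, unadjusted p = 0.0332, adjusted p = 0.263). The median of the 8 was -1.06 in that fit, and the median SE was 0.248, against 0.157 without the covariate. Xbp1 was at -1.03 in that fit (adjusted p = 0.0196, edgeR), against -0.51 without the covariate. The fit called 240 genes in all, and Ptprc itself did not overlap between the groups. What part of the fall comes with the share of leukocytes or other cells was not tested beyond this fit.

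Some of the enzymes have close neighbours in the genome (GENCODE M21 annotation of GRCm38), and the sources used here do not give the strand setting of the authors' counting. The start of Mvk lies 209 bases from that of Mmab, on the other strand, with no shared exon. Mmab, which encodes the adenosyltransferase of vitamin B12, had 19.1, 13.8, 17.0 and 23.8 CPM in shXBP1 tumors 1 to 4, against 34.5, 40.7, 34.1 and 32.7 CPM in shNT tumors 1 to 4. Mmab thus fell beside Mvk, with tumor 2 at the low end in shXBP1 and at the high end in shNT tumors for each gene (log2 fold change -0.94, SE 0.15, adjusted p = 0.000602). Ggps1 shares 257 exonic bases, 5.44% of its own, with Arid4b on the other strand, a chromatin regulator at 38.3 ± 2.52 CPM in shXBP1 and 35.7 ± 2.05 CPM in shNT tumors (adjusted p = 0.381). Fdps shares 26.7% of its exonic bases with the predicted gene Gm43738 on the same strand. Gm43738 had counts in only 1 tumor of each group. Hmgcs1 and Idi1 share 12.1% and 9.22% of theirs with the predicted loci Gm48342 and Gm48574 on the other strand, which have no entry in the table.

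The fall went on into the sterol branch, where Fdft1 (squalene synthase) commits farnesyl diphosphate to cholesterol. Of 12 enzymes in this branch 10 fell, none rose and 2 did not pass, beside 13.1% of all genes called lower. The median log2 fold change of the 12 was -1.53. With the Ptprc covariate 4 were called lower, and 8 had a negative log2 fold change with an unadjusted p below 0.05 (edgeR). Fdft1 had 46.6, 38.2, 50.9 and 52.9 CPM in shXBP1 tumors 1 to 4, against 141, 153, 133 and 129 CPM in shNT tumors 1 to 4 (log2 fold change -1.56, SE 0.11, adjusted p = 3.63e-06). Cyp51, the lanosterol demethylase, fell by 1.80 on the log2 scale (127 ± 22.9 CPM in shXBP1 and 440.4 ± 40.7 CPM in shNT tumors). Msmo1, a methylsterol oxidase, fell by 1.74 (65.9 ± 10.3 CPM in shXBP1 and 219.8 ± 29.9 CPM in shNT tumors). Nsdhl, the sterol dehydrogenase, fell by 1.54 (17.3 ± 2.01 CPM in shXBP1 and 50.3 ± 8.89 CPM in shNT tumors). The 2 that did not pass were Tm7sf2, a sterol reductase, at -0.04 and Ebp, the sterol isomerase, at 0.00 (chosen after their values were seen). Ggps1, Tm7sf2 and Ebp were therefore the 3 of 20 enzymes from Acat2 to the end of the sterol branch, as listed here, that did not pass.

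Genes that use isoprenoids for other ends moved little. Of 38 measured genes for protein prenylation, dolichol and ubiquinone or other polyprenyl groups, 3 fell, 2 rose and 33 did not pass, with a median log2 fold change of -0.05, where 30.0% of all genes were called. Leaving out 1 tumor gave 2 to 7 calls in place of 5, and the Ptprc covariate 0 (6 at an unadjusted p below 0.05, edgeR) and turned Icmt to 0.12 and Coq10b to -0.13. In protein prenylation Chml, a Rab escort protein, fell by 0.55 (22.0 ± 0.837 CPM in shXBP1 and 32.2 ± 2.73 CPM in shNT tumors, adjusted p = 0.000842). Icmt, which methylates the prenylated cysteine, fell by 0.27 (adjusted p = 0.0303), while Chm, the other Rab escort protein, was at -0.21 (adjusted p = 0.124) and Rabggtb, a subunit of the Rab prenyl transferase, at 0.14 (adjusted p = 0.285). The other 8 genes of that list, the farnesyl and geranylgeranyl transferase subunits Fnta, Fntb and Pggt1b among them, did not pass. Of 10 dolichol genes edgeR, DESeq2 and limma voom called 0, and in each 1 had a negative fold change with an unadjusted p below 0.05, with a median of 0.03 in edgeR. That gene in edgeR was Dolpp1, a dolichyl diphosphate phosphatase, at -0.26 (adjusted p = 0.0788). Dhdds, a subunit of the cis-prenyltransferase, was at -0.15, Alg5, a dolichyl phosphate glucosyltransferase, at -0.13, and Dpm3, a subunit of dolichol phosphate mannose synthase, at 0.14. Among 16 genes for ubiquinone, heme A and related groups, Cox10, which farnesylates heme, fell by 0.52 (15.8 ± 2.19 CPM in shXBP1 and 22.7 ± 2.89 CPM in shNT tumors, adjusted p = 0.00920). Coq8b and Coq10b, of ubiquinone synthesis and handling, rose by 0.37 (adjusted p = 0.0346) and 0.34 (adjusted p = 0.0319), and Coq3, a methyltransferase of ubiquinone synthesis, was at -0.29 (adjusted p = 0.147).

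**Figure D4:**
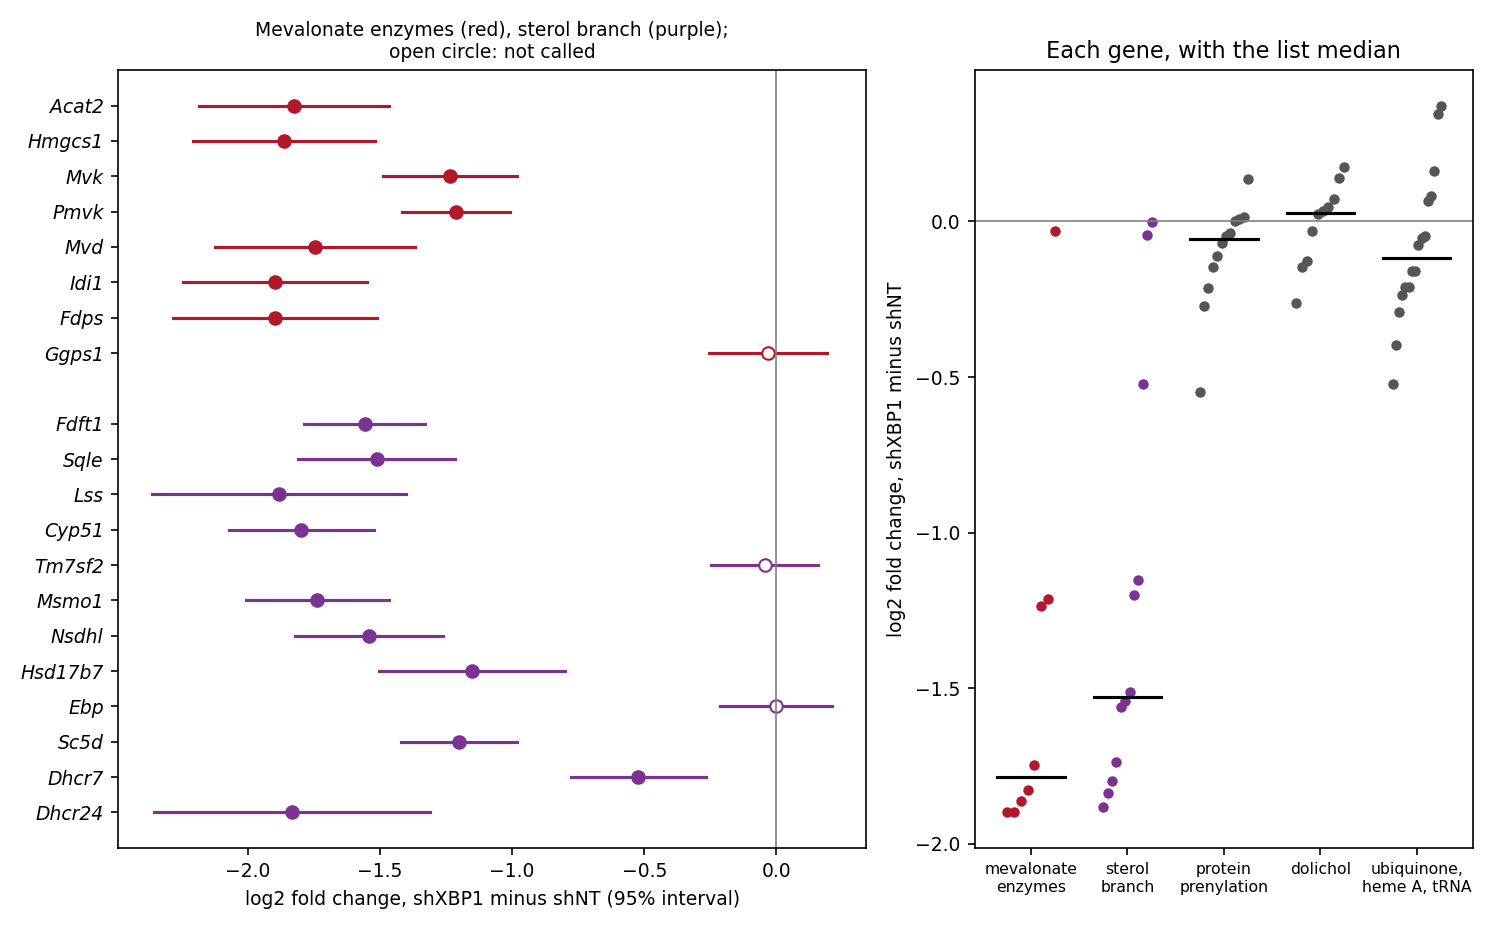
Left, log2 fold change (shXBP1 minus shNT) with its 95% interval for the mevalonate enzymes (red) and the sterol branch (purple), with open circles for genes that did not pass. Right, the log2 fold change of every measured gene of each list (points) and the list's median (bars), which is -1.79 for the mevalonate enzymes, -1.53 for the sterol branch, -0.06 for protein prenylation, 0.03 for dolichol and -0.12 for ubiquinone, heme A and tRNA genes.

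Upstream of the pathway, 5 of 8 genes that make or move acetyl-CoA fell, 1 rose and 2 did not pass, with a median log2 fold change of -0.30. Among all genes 13.1% were called lower and 30.0% in either direction. The 6 calls became 3 without shNT tumor 3, under the tumor-number block or at an adjusted p of 0.01. With the Ptprc covariate they became 0 (2 at an unadjusted p below 0.05, edgeR). Acly, which splits citrate into cytosolic acetyl-CoA, had 155, 152, 166 and 206 CPM in shXBP1 tumors 1 to 4, against 336, 364, 353 and 318 CPM in shNT tumors 1 to 4. It fell by 1.01 on the log2 scale, 2.02-fold lower (SE 0.10, adjusted p = 3.82e-05). Slc25a1, the mitochondrial citrate carrier, fell by 0.49 (adjusted p = 0.00934) and Pdhb, a subunit of pyruvate dehydrogenase, by 0.31 (adjusted p = 0.0142). The member that rose was Acss1, the mitochondrial acetyl-CoA synthetase, at 5.16 ± 1.69 CPM in shXBP1 and 1.63 ± 0.195 CPM in shNT tumors (log2 fold change 1.66, adjusted p = 0.000862).

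Enzymes that run like reactions in mitochondria, in peroxisomes or on ketone bodies showed no common direction. Of 10 measured, 2 fell, 2 rose and 6 did not pass, beside 30.0% of all genes called, with a median log2 fold change of 0.17, and Idi2 and Hmgcll1 did not reach the count filter. Aacs, the cytosolic synthetase that turns acetoacetate into acetoacetyl-CoA, was at 86.4 ± 13.3 CPM in shXBP1 and 156 ± 11.5 CPM in shNT tumors (log2 fold change -0.85, SE 0.11, adjusted p = 0.000176). Oxct1, which activates ketone bodies in mitochondria, fell by 0.27 (adjusted p = 0.0194). Acaa2, a mitochondrial thiolase, rose by 0.31 (adjusted p = 0.0275; -0.054 with the Ptprc covariate), and Bdh1, of ketone body interconversion, rose by 1.94 at a low level (1.17 ± 0.552 CPM in shXBP1 and 0.302 ± 0.199 CPM in shNT tumors, adjusted p = 0.0147). The 4 calls became 2 without shNT tumor 1 or 3, 1 under the tumor-number block and 0 with the Ptprc covariate (1 at an unadjusted p below 0.05, edgeR).

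Of 13 regulators of the sterol response 4 fell, 1 rose and 8 did not pass, with a median log2 fold change of -0.18. Among all genes 30.0% were called. Of the 13, 0 were called once Ptprc entered the edgeR model, 0 also at an unadjusted p below 0.05. Srebf2, which encodes SREBP-2, had 187, 140, 176 and 257 CPM in shXBP1 tumors 1 to 4, against 335, 387, 362 and 350.3 CPM in shNT tumors 1 to 4, again with tumor 2 lowest and tumor 4 highest of the shXBP1 group. Its log2 fold change was -0.92 (SE 0.15, adjusted p = 0.00118). Insig1, an endoplasmic reticulum anchor of the SREBP complex, was at 84.2 ± 30.2 CPM in shXBP1 and 244 ± 31.1 CPM in shNT tumors (log2 fold change -1.53, SE 0.24, adjusted p = 0.00164). Its paralog Insig2 rose by 0.53 (75.2 ± 6.05 CPM in shXBP1 and 52.2 ± 6.55 CPM in shNT tumors, adjusted p = 0.00202). Mbtps2, a protease that releases SREBP, fell by 0.37 (adjusted p = 0.0102).

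The genes most like the enzymes over the 8 tumors were sought by the distance of their centred log2 CPM from the mean profile of the 8 enzymes, among 13037 genes. Fdft1 was nearest, at a root mean square distance of 0.0642 on the log2 scale, followed by Stard4, a sterol carrier (0.0911), Sqle, squalene epoxidase (0.0955), Elovl6, a fatty acid elongase (0.113), Nsdhl (0.132), Scd2, a fatty acid desaturase (0.148), Glrp1 (0.149) and Pcyt1b, of phosphatidylcholine synthesis (0.156). Their means ran from 6.30 CPM in shXBP1 and 16.9 CPM in shNT tumors for Glrp1 to 298.5 CPM in shXBP1 and 968 CPM in shNT tumors for Scd2. The 7 enzymes that fell lay between 0.152 (Mvk) and 0.257 (Fdps) from that mean, of which Ggps1 is a part, and Ggps1 lay 0.768 away. Measured from the mean of the 7 that fell, Scd2 was nearest (0.0835), followed by Fdft1, Cyp51, Sqle, Elovl6, Pcyt1b, Msmo1 and Nsdhl, and Stard4 and Glrp1 were no longer among the first 8. These distances hold the group difference within them and carry no test.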

How the data were processed

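Total RNA of 8 whole tumors was sequenced, 4 of the shXBP1 and 4 of the shNT genotype, and samples were grouped by that label. The authors deposited 1 table with raw counts and FPKM per tumor, per the file headers. Counts are whole numbers without normalization, and FPKM, per the file headers, is the authors' scaling of them for transcript length and depth. Other columns, deposited by the authors, give a DESeq2 log2 fold change, an adjusted p and a call. Per the submitters' processing notes the reads were placed on GRCm38. The sources used here do not name an aligner, a counter, its strand setting or an annotation release. Of 22036 annotated entries 22022 were found in GENCODE M21, and the other 3730 entries are loci listed as new.

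The filterByExpr function kept 14907 genes with enough counts. Counts were scaled by TMM factors (0.980 to 1.04) and tested with edgeR's quasi-likelihood test (version 4.0.16, R 4.3.3, robust, no covariate), two-sided, at 0.05 after Benjamini-Hochberg adjustment over all these genes. CPM values are given with the SD over 4 tumors. Log2 ratios used a prior count of 2 and two-sided exact permutation tests. Between tumors of a group, chi-square divided by its degrees of freedom was at least 16.2, so no library was counted as a repeat of another. Alternatives were DESeq2 (version 1.42.0), limma voom (version 3.58.1), other size factors and filters, dispersions without robust estimation, a block for the tumor number, Ptprc as a covariate, an adjusted p of 0.01, other settings of the ratios, and leaving out each tumor. The edgeR, limma voom, DESeq2 and tumor-number block fits were also run on simulated counts, in which fewer genes changed than were called here. A limit set there on false calls was not applied to DESeq2, and the Ptprc covariate was not simulated.

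The enzymes and all lists were chosen with earlier results of these data known. Named genes are the 8 enzymes, Xbp1, at most 4 genes per list (those of smallest p), the 8 nearest profiles, and genes with 1 tumor far from its group. Of these, 1 gene is not reported here, nor is 1 of the 3 ratios tested, which did not pass. Promoter sequences are from RefSeq (GRCm38.p6).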

Additional observations from a re-analysis of the deposited data

Results flagged for a closer look

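In 3 of 22 groups of 4 tumors checked, 1 tumor lay far from the other 3 by Dixon's criterion at the 95% level, and chance gives about 1 in 20. Mvk was at 60.3 CPM in shNT tumor 2, with the other 3 shNT tumors at 47.7 to 49.2 CPM. Fdps was at 256 CPM in shNT tumor 4, with the others at 292 to 295 CPM. Ggps1 was at 52.3 CPM in shNT tumor 1, with the others at 42.9 to 44.3 CPM. No tumor was flagged for more than 1 of these values, and leaving out any 1 tumor left the same 7 enzymes lower.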

How the results depend on the processing

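Of 152 values of the enzymes under 19 alternatives, 147 stayed on their side of the threshold. The 7 enzymes that fell kept their direction in all, and Ggps1, never called, was above 0 in 3 of 19. The other 5 missed the threshold with Ptprc as a covariate, where 2 enzymes were called. In every fit that left out 1 tumor 7 enzymes and 10 sterol branch genes were lower, with an adjusted p of at most 0.000645 (Mvd) among the 7. With the Ptprc covariate 240 genes were called, 106 of them lower, among them 4 sterol branch genes. That fit by edgeR called 0 isoprenoid users, 0 acetyl-CoA supply genes, 0 isozymes, 0 regulators and 0 small GTPases and lamins, while 6, 2, 1, 0 and 3 of them had an unadjusted p under 0.05. It turned the direction of Acaa2 (-0.054), Coq10b (-0.13) and Icmt (0.12), and the cause was not tested. An adjusted p of 0.01 left 2523 genes, 879 of them lower, with 2 isoprenoid users, 3 acetyl-CoA supply genes, 1 isozyme, 3 regulators and 1 small GTPase. With no count filter 2 small GTPases and lamins were called. Leaving out 1 tumor gave 1303 (without shNT tumor 3) to 2401 genes lower, 2 to 7 isoprenoid users, 3 to 6 acetyl-CoA supply genes, 2 to 4 isozymes and 2 to 6 small GTPases and lamins. Isoprenoid users numbered 2 when shXBP1 tumor 1, shXBP1 tumor 3, shNT tumor 2 or shNT tumor 3 was left out, and 3 when shXBP1 tumor 2 or shNT tumor 4 was. Acetyl-CoA supply genes numbered 3 without shNT tumor 3, isozymes 2 without shNT tumor 1 or 3, and small GTPases and lamins 2 without 1 of the shNT tumors, whichever it was, or without shXBP1 tumor 1 or 3. Of 606 values of other named genes, 525 kept their call, 78 lost it and 3 reversed.

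Deviations of same-numbered tumors from their group means had correlations of -0.14 to -0.02, so the numbers were not taken to pair tumors. With the tumor number as a replicate block 1304 genes were lower, 7 enzymes among them, with 3 isoprenoid users, 3 acetyl-CoA supply genes, 1 isozyme and 2 small GTPases and lamins. In the paired ratio tests Fdps to Ggps1 differed by -1.91 and Acat2 to Acat1 by -1.75, with exact p = 0.125, the smallest that 4 pairs allow. Leaving out 1 tumor gave -2.15 to -1.68 and -1.87 to -1.55, where 3 against 4 tumors cannot go below an exact p of 0.0571.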

Other observations

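Proteins that carry prenyl groups were set beside the enzymes. Of 17 small GTPases and lamins measured, 3 fell, 1 rose and 13 did not pass, beside 30.0% of all genes called, with a median log2 fold change of -0.01. The 4 calls became 2 without 1 of the shNT tumors, whichever it was, or without shXBP1 tumor 1 or 3. Rac2, a small GTPase of blood cells, had 101, 113, 116 and 62.4 CPM in shXBP1 tumors 1 to 4, against 35.8, 29.9, 34.8 and 36.3 CPM in shNT tumors 1 to 4 (log2 fold change 1.52, SE 0.17, adjusted p = 0.000173), with its lowest shXBP1 value in tumor 4, as for Ptprc. Among those that fell, Lmna, which encodes lamins A and C, fell by 0.34 (adjusted p = 0.0175) and Rheb by 0.25 (adjusted p = 0.0474) in edgeR's quasi-likelihood test.

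Dpm1, the catalytic subunit of dolichol phosphate mannose synthase, had 3.63, 5.88, 42.1 and 4.26 CPM in shXBP1 tumors 1 to 4, against 5.86, 33.5, 3.67 and 6.42 CPM in shNT tumors 1 to 4 (chosen after its values were seen). One tumor of each group stood far above the others, and the SD exceeded the mean in each group.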
